A study of Homo sapiens with 8 samples.

Results

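RNA levels were set directly against each other in 2 lines of IMR90 cells, human fetal lung fibroblasts: one carrying a short hairpin RNA against HuR (shHuR) and one carrying a short hairpin RNA against ADAR1 (shADAR1). Both libraries were inputs, that is, total RNA of the lysates from which HuR was then precipitated, and each line gave 1 of them. Genes were taken where at least 1 of these libraries held 50 or more counts, which left 13020 of the 57736 listed genes. The higher of the 2 counts was exactly 50 in 30 of the genes kept, and 34 genes with 49 fell just below. The series also holds an shControl input, HuR precipitates of all 3 lines, and a separate RNA-seq pair of an ADAR1 knockdown and its control. The labels do not give the hairpin sequences, the time after their introduction or the number of clones. Each group held 1 library, so no difference has a replicate check and no p-value is given. Intervals are given at 95% and cover counting error only.

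ADAR1 (gene ADAR) converts adenosine to inosine in double-stranded RNA, and this editing keeps the cell's own transcripts from being sensed as foreign and from starting an interferon response. HuR (gene ELAVL1) binds AU-rich and U-rich stretches of mRNAs, many of them from cytokine, growth factor and cell cycle genes, and is known for prolonging their lifetime. Senescent fibroblasts leave the cell cycle, lose lamin B1 and secrete cytokines, proteases and growth factors. The series concerns, by its title, ADAR1 and the level of p16, the product of CDKN2A.

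The shHuR input held 34863880 counts and the shADAR1 input 28390935. ELAVL1 had 674 counts in shHuR, 3545 in shADAR1 and 4806 in shControl, and ADAR had 9406 counts in shHuR, 3142 in shADAR1 and 12890 in shControl. Each targeted gene was thus lowest in the library named for it. Between the lines, ELAVL1 was 6.80-fold lower (log2 ratio -2.77, interval -2.89 to -2.65) in shHuR, and ADAR was 2.31-fold higher (log2 ratio 1.21, interval 1.15 to 1.27). Of 9 fibroblast markers, all passed the count minimum, and their summed level in CPM (counts scaled to a common library size) was 7048 in shHuR, 12436 in shADAR1 and 11349 in shControl. Of these, COL1A1, PDGFRA and PDGFRB were lower in shHuR than in shADAR1. None of 9 epithelial markers passed the minimum, with a summed level of 0.910 CPM in shHuR and 1.32 CPM in shADAR1, and 5 of them were at 0 in both libraries. Of 7 leukocyte markers, 2 passed and 3 were at 0 in both. Their summed level was 28.96 CPM in shHuR, 33.53 CPM in shADAR1 and 30.46 CPM in shControl. Of the 2 that passed, CD14, a monocyte receptor, had 15 counts in shHuR, 152 in shADAR1 and 1 in shControl. The other was not called, with a log2 ratio of 0.02. Of 7 endothelial markers 1 passed, the receptor gene TEK, with 1270 counts in shHuR, 2049 in shADAR1 and 641 in shControl. The part of such cells in the results was not tested. In these bulk samples, fewer cells of a type and less RNA per cell cannot be told apart.

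Calls rest on a difference of 2-fold or more between the shHuR and shADAR1 inputs, after TMM scaling (the trimmed mean of M values evens out library size and composition) and with a prior count of 2. By that rule 682 genes (5.24% of those tested) were higher in shHuR and 1259 (9.67%) were lower, and 11079 were not called. The median log2 ratio over all 13020 genes was -0.0011, with a standard deviation of 0.903 across genes. At 4-fold, 182 genes were higher and 435 lower. The genes higher in shHuR took 4.24% of its counts and 1.33% of those of shADAR1, and the genes lower in shHuR took 2.66% and 7.33%. The lower genes thus outnumbered the higher ones at both limits. Counts of called genes in the lists below are to be read beside 5.24% higher and 9.67% lower, and short lists hold few genes.

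**Figure D1:**
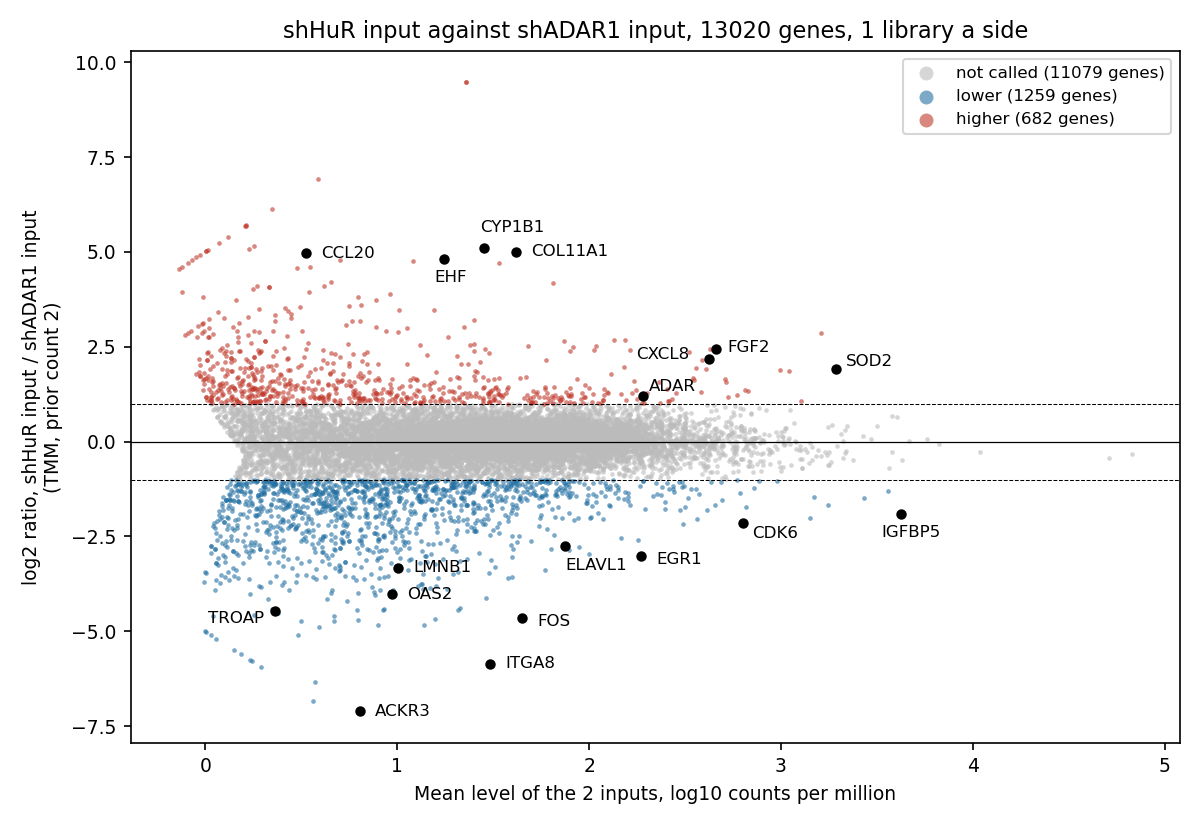
Each point is 1 of 13020 genes, with the mean level of the 2 inputs on the x axis (log10 CPM) and the log2 ratio of shHuR over shADAR1 on the y axis. Dashed lines mark 2-fold, and 682 genes lie above them and 1259 below. Black points are examples named in the text.

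Genes of mitosis had the lowest median of the lists with 5 or more genes tested. Where 3 counts of a gene are given without names, they stand in the order shHuR, shADAR1 and shControl, before scaling. Library sizes differ, so the order of such counts can differ from the order in CPM. Of 42 genes of mitosis and the kinetochore, 40 were lower in shHuR and none higher, with a median log2 ratio of -2.83 beside -0.0011 over all genes. All 8 kinetochore and centromere genes and all 13 spindle and motor genes were among them. CDK1, the kinase that drives entry into mitosis, had 32 counts in shHuR, 376 in shADAR1 and 764 in shControl, and was 15.2-fold lower (log2 ratio -3.93, interval -4.49 to -3.40). MYBL2, a transcription factor of late cell cycle genes, had 29 counts in shHuR, 395 in shADAR1 and 1643 in shControl, and was 17.6-fold lower (log2 ratio -4.14, interval -4.74 to -3.59). NUSAP1, a spindle protein whose counts are uncertain because 62.2% of its exon length overlaps another gene, had 25 counts in shHuR, 443 in shADAR1 and 1081 in shControl, and was 22.9-fold lower (log2 ratio -4.52, interval -5.16 to -3.94). For all 3 genes the order was the same, lowest in shHuR and highest in shControl. TROAP had only 5, 121 and 655 counts in the same order of libraries, and was 31.3-fold lower (log2 ratio -4.97, interval -6.62 to -3.71). In the HuR precipitates of the same lines, where 12.5% of genes tested in both were higher and 17.2% lower, 32 of 36 mitosis genes were lower and none higher. Ratios in the precipitates, here and below, also hold recovery by the antibody. In the separate RNA-seq pair of ADAR1 knockdown against control their median was 0.05.

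Promoters of the mitosis genes are shown because many of these genes carry the cell cycle genes homology region, a short element known from genes of this phase. The letters TTTGAA, the core of that element, were searched on both strands of RefSeq promoters of 300 bases (build GRCh38.p14). They were found in 23 of the 34 lower mitosis genes that had a promoter in the table (67.6%), in 15.2% of all 35116 promoters and in 9.70% of the promoters of tested genes. The match describes letters in a window and is not evidence of a bound site. The promoters of CDK1 (chr10:60778081-60778380, plus strand) and of TOP2A (chr17:40417847-40418146, minus strand), which encodes topoisomerase II alpha, follow with the matches in capitals.
CDK1: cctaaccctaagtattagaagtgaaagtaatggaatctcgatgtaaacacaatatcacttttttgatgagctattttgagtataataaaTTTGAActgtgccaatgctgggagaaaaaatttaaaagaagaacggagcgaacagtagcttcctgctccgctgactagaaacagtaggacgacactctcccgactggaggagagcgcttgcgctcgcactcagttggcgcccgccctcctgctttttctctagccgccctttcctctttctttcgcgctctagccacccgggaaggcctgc
TOP2A: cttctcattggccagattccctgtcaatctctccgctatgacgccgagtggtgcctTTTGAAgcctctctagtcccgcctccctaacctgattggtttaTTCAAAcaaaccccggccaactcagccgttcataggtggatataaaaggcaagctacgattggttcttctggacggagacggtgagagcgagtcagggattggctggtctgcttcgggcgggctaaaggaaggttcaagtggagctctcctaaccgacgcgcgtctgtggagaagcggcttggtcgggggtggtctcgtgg

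Genes of DNA replication were lower in 27 of 43 cases and higher in none, with a median of -1.24. Of 16 genes for the replicative helicase and its loading, 13 were lower. RRM2, a subunit of ribonucleotide reductase, had 172 counts in shHuR, 1496 in shADAR1 and 2926 in shControl, and was 11.3-fold lower (log2 ratio -3.49, interval -3.73 to -3.26). TK1, thymidine kinase, had 106, 679 and 2481 counts in that order, and was 8.29-fold lower (log2 ratio -3.05, interval -3.36 to -2.75). The cyclin gene CCNE2 had 18, 124 and 163, and was 8.91-fold lower. All 3 genes were lowest in shHuR, and RRM2 and TK1 were highest in shControl, while CCNE2 stood at 4.56 CPM in shADAR1 and 4.28 CPM in shControl. In the separate RNA-seq pair 2 of 42 replication genes were higher with ADAR1 knockdown and none lower, with a median of 0.39. Over all genes tested in both experiments 6.1% were higher and 7.36% lower.

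Replication-dependent histone genes encode the histones made in S phase. Of 58 listed, 24 could be matched to an ID, and 18 of these were lower and 1 higher, with a median of -1.94. H1-3 had 66 counts in shHuR, 759 in shADAR1 and 3705 in shControl, and was 14.9-fold lower (log2 ratio -3.89, interval -4.28 to -3.53). The linker histone genes H1-5 and H1-4 were lower too. H1-5 had 110, 974 and 5174, and was 11.5-fold lower. H1-4 had 167, 1125 and 4105, and was 8.71-fold lower. The exception was H2BC12, with 8873, 3398 and 5211 counts, which was 2.02-fold higher, a call that ended when trends over GC content and length were removed (log2 ratio 0.95). In the HuR precipitates of the same lines the histone median was 0.16, on the other side of 0. In the separate RNA-seq pair 16 of 24 histone genes were higher with ADAR1 knockdown and none lower, with a median of 1.10. Over all genes tested in both experiments 6.1% were higher and 7.36% lower. In the inputs the summed histone level was 656 CPM in shHuR, 774 CPM in shADAR1 and 1458 CPM in shControl. Histone genes are near-identical copies, so their assignment is uncertain.

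**Figure D2:**
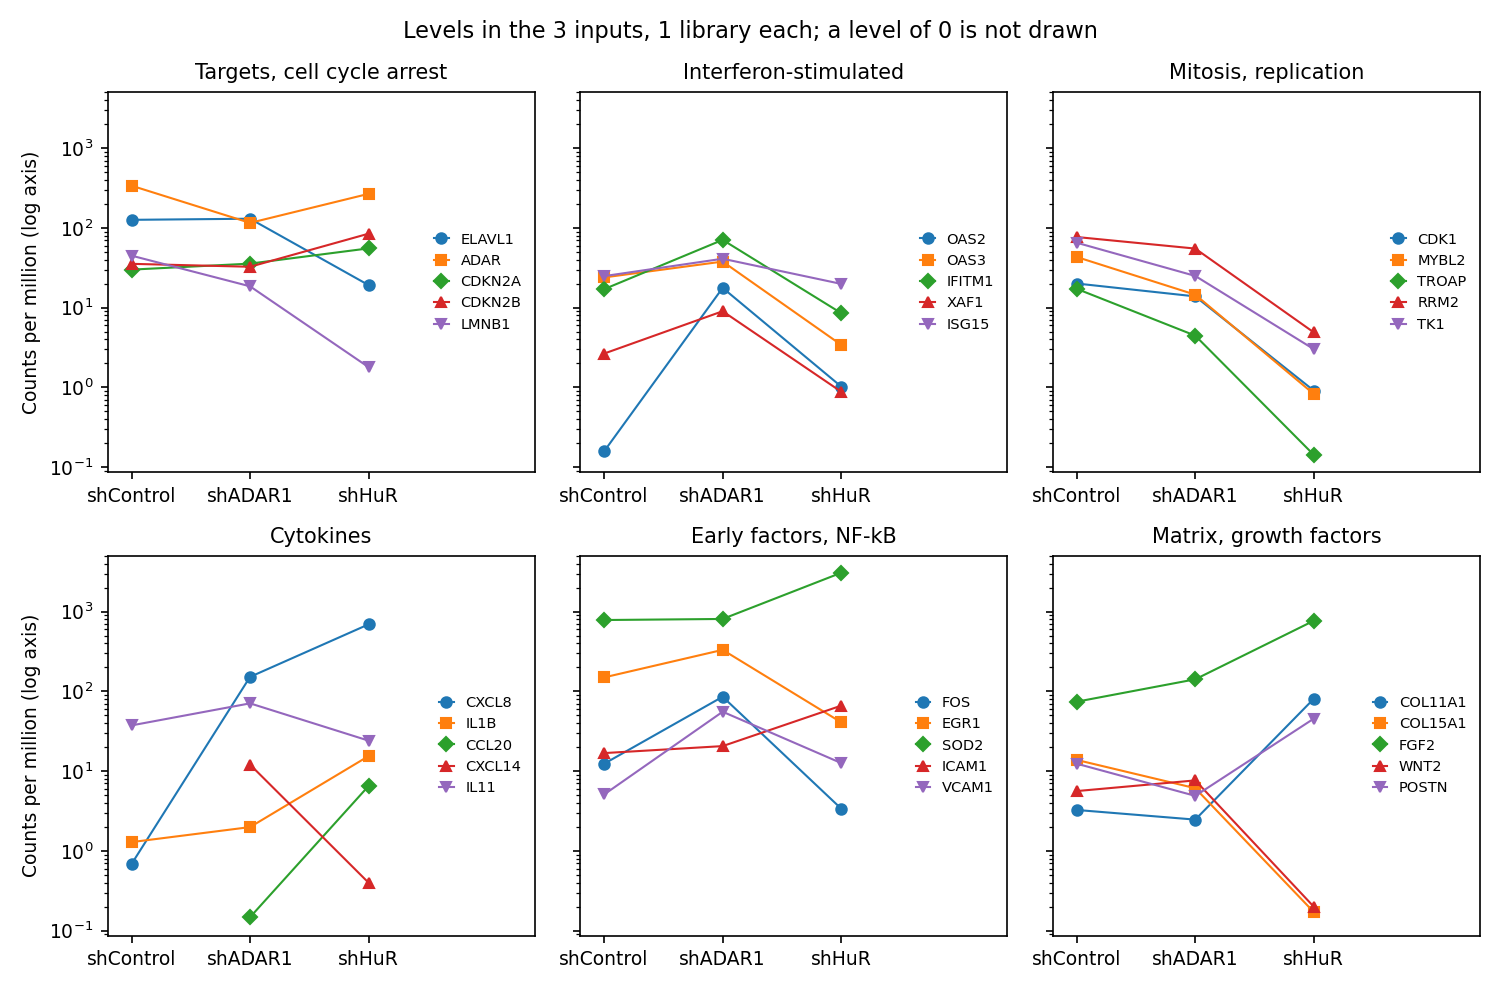
Levels of named genes in the shHuR, shADAR1 and shControl inputs, in CPM on a log axis, with 1 library a group and therefore no error bars. Cell cycle genes such as CDK1 are lowest in shHuR and highest in shControl, and interferon-stimulated genes such as OAS2 are highest in shADAR1.

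Interferon-stimulated genes were the other broad group. Of 48 tested of 57 listed, 34 were lower in shHuR than in shADAR1 and none was higher, with a median log2 ratio of -1.42. All 4 listed genes of the OAS family, which includes the 2-5A synthetases that make the activator of RNase L, were lower. OAS2 had 36 counts in shHuR, 481 in shADAR1 and 6 in shControl, and was 17.3-fold lower (log2 ratio -4.11, interval -4.64 to -3.62). OAS3 had 120 counts in shHuR, 1028 in shADAR1 and 911 in shControl, and was 11.1-fold lower (log2 ratio -3.47, interval -3.76 to -3.20). Both were highest in shADAR1, at 17.7 and 37.8 CPM, and in shControl they stood at 0.158 and 23.9 CPM.

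Among the effectors, 12 of 20 were lower. IFITM1, a membrane protein that restricts virus entry, had 300 counts in shHuR, 1924 in shADAR1 and 649 in shControl, and was 8.30-fold lower (log2 ratio -3.05, interval -3.23 to -2.88). XAF1 had 31, 245 and 101 in that order, and was 10.2-fold lower (log2 ratio -3.35, interval -3.94 to -2.81). All 5 genes of the ISG15 conjugation system were lower, and so were 3 of 5 transcription factors. IRF9, which joins the STAT proteins in the interferon complex, had 364, 1283 and 764 counts, and was 4.56-fold lower (log2 ratio -2.19, interval -2.36 to -2.02). IFIH1, the sensor MDA5 of double-stranded RNA, had 162, 322 and 187, and was 2.57-fold lower. In the precipitates 26 of 40 were lower and none higher, with a median of -1.20. In the separate RNA-seq pair, of 42 tested, 4 were higher and 7 lower with the knockdown (6.1% and 7.36% over all genes tested in both experiments), with a median of -0.28.

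The interferon-stimulated response element is the sequence through which interferon acts on these genes, so their promoters are shown. The letters GAAA, 2 bases of any kind and GAAA again, searched on both strands, were found in 18 of the 27 lower genes with a promoter in the table (66.7%) and in 5 of 10 not called. They occurred in 3.57% of all promoters and in 2.69% of those of tested genes. The promoters of OAS3 (chr12:112938224-112938523, plus strand), IFITM1 (chr11:313790-314089, plus strand) and IFI44 (chr1:78649539-78649838, plus strand) follow with the matches on either strand in capitals.
OAS3: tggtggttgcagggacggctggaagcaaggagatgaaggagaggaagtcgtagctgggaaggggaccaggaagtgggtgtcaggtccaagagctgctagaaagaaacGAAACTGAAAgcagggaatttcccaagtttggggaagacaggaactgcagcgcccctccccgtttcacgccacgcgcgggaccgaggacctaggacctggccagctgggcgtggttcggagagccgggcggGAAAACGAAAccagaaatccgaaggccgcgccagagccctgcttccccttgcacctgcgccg
IFITM1: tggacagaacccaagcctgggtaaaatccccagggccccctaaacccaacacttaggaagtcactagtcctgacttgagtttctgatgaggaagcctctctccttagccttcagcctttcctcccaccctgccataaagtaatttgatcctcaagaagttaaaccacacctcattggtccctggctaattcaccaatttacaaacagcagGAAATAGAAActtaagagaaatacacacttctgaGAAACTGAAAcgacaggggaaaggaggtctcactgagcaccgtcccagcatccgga
IFI44: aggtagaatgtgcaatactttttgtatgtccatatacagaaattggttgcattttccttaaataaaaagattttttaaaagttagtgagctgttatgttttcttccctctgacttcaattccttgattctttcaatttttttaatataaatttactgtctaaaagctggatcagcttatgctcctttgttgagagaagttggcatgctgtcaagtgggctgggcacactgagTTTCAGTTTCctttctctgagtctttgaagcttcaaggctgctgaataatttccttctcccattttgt

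Genes of antigen presentation, many of which interferon also induces, were called in 1 of 16 cases, with a median of -0.48. That gene was PSMB9, an immunoproteasome subunit, with 58 counts in shHuR, 332 in shADAR1 and 487 in shControl, and it was 7.40-fold lower (log2 ratio -2.89, interval -3.32 to -2.48). None of the 5 MHC chains tested was called. Of 23 genes for binding double-stranded RNA or for RNA editing, 4 were lower and 1, ADAR itself, was higher, beside 9.67% and 5.24% over all genes. The lower ones, all listed as editing enzymes, were ADARB1 and the cytidine deaminase genes APOBEC3B, APOBEC3F and APOBEC3G. APOBEC3B had 26, 93 and 370, and was 4.63-fold lower. APOBEC3G had 76, 231 and 319, and was 3.93-fold lower. ADARB1, which encodes the related enzyme ADAR2, had 634, 1019 and 1448, and was 2.08-fold lower. The calls of ADARB1 and APOBEC3F ended with scaling by library totals (log2 ratios -0.98 and -0.99). That of ADARB1 also ended when GC and length trends were removed (log2 ratio -0.97).

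**Figure D3:**
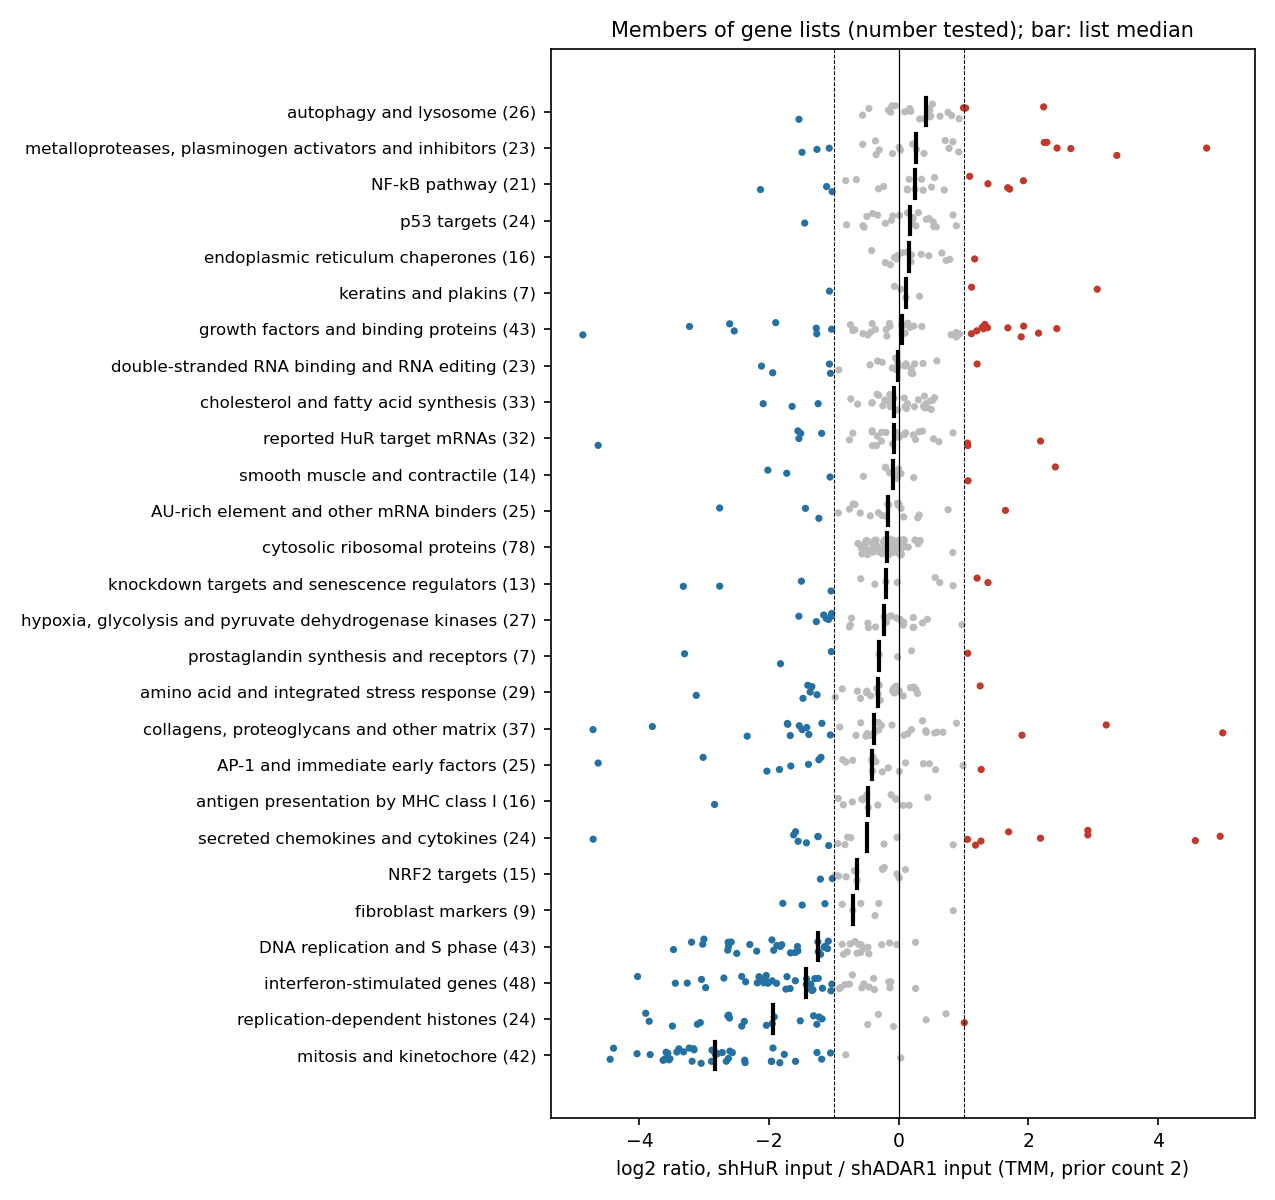
Log2 ratio of shHuR over shADAR1 input for the tested members of each gene list, 1 point a gene, with the median marked. Mitosis, replication, histone and interferon-stimulated genes lie mostly below 0, and ribosomal protein genes lie within 2-fold.

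Senescence regulators were called in both directions. Of 11, 1 was higher (CDKN2B) and 3 were lower (LMNB1, HMGB2 and EZH2), few genes beside 5.24% and 9.67% over all genes. The list holds both CDK inhibitors and a lamin lost in senescence, so its members need not share a sign. HMGB2 had 264 counts in shHuR, 581 in shADAR1 and 2497 in shControl. EZH2 had 120, 193 and 671, and its call ended with scaling by library totals (log2 ratio -0.97) and with a prior count of 10 (-0.99). CDKN2A, which encodes p16, had 1947 counts in shHuR, 969 in shADAR1 and 1141 in shControl, and was not called (log2 ratio 0.64, interval 0.52 to 0.75). After scaling it stood at 55.4 CPM in shHuR, 35.7 CPM in shADAR1 and 30.0 CPM in shControl, so shControl was lowest. In the RNA-seq pair its log2 ratio with ADAR1 knockdown was 0.67. CDKN1A, which encodes p21, had 50339 counts in shHuR, 21765 in shADAR1 and 33593 in shControl, also short of 2-fold (log2 ratio 0.84, interval 0.82 to 0.86). Both were higher in shHuR than in either other input. CDKN2B, the neighbour of CDKN2A and also a CDK inhibitor, had 2977, 885 and 1349, and was 2.60-fold higher (log2 ratio 1.38, interval 1.27 to 1.49). LMNB1, the lamin lost in senescence, had 63, 503 and 1709, and was 10.3-fold lower (log2 ratio -3.37, interval -3.77 to -2.99). SIRT1, a deacetylase, had 518, 459 and 1038, and was not called (log2 ratio -0.20, interval -0.38 to -0.01). With ADAR1 knockdown in the RNA-seq pair, CDKN1A and SIRT1 were called lower, with log2 ratios of -1.11 and -1.28. The log2 ratios there were 0.04 for CDKN2B, 0.54 for LMNB1, 0.38 for HMGB2 and 0.60 for EZH2, and none of these was called.

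Secreted chemokines and cytokines went both ways, with 9 of 24 higher and 8 lower and a median of -0.48. In the precipitates they ran mostly one way, with 1 of 20 higher and 11 lower and a median of -1.25. CXCL8, a neutrophil chemokine, had 24392 counts in shHuR, 4136 in shADAR1 and 26 in shControl, and was 4.56-fold higher (log2 ratio 2.19, interval 2.14 to 2.24). CCL20, which attracts lymphocytes and dendritic cells, had 229, 4 and 0 counts in that order, and was 44.3-fold higher (log2 ratio 5.47, interval 4.09 to 7.36). IL1A had 206, 5 and 1, and was 31.8-fold higher (log2 ratio 4.99, interval 3.75 to 6.63). IL1B had 543, 54 and 49, and was 7.77-fold higher (log2 ratio 2.96, interval 2.55 to 3.39). CSF2, which encodes GM-CSF, had 93, 8 and 4, and was 8.99-fold higher. These genes were highest in shHuR. In the other direction stood CXCL14, with 14 counts in shHuR, 328 in shADAR1 and 0 in shControl, which was 30.3-fold lower (log2 ratio -4.92, interval -5.81 to -4.15). The interleukin genes IL11, IL15 and IL24 were lower as well. IL11 had 848, 1925 and 1426, and was 2.94-fold lower. IL15 had 47, 113 and 99, and was 3.11-fold lower. IL24 had 62, 151 and 16, and was 3.15-fold lower. CXCL1 had 4142, 3260 and 16, and its log2 ratio was -0.03, with an interval of -0.09 to 0.04, and it was above shControl in both lines.

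CCL20 is shown because it had the largest ratio of the secreted factors. A form of the NF-kB site (GGG, 2 bases of any kind, TT, 1 base of any kind, CC) was searched on both strands, and was found in 3 of 7 higher, 1 of 6 lower and 4 of 6 uncalled genes of this list with a promoter. It occurred in 5.68% of all promoters and 6.6% of those of tested genes. The CCL20 promoter lies at chr2:227813592-227813891, plus strand, with 2 overlapping matches in capitals.
CCL20: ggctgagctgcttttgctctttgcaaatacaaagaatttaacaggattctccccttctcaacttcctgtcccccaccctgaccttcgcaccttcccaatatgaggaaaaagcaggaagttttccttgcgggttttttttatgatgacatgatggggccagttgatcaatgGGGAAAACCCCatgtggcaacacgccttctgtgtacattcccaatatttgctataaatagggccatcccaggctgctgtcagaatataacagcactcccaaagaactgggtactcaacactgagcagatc

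Of 21 genes of the NF-kB pathway, 5 were higher and 3 lower, with a median of 0.25. SOD2, the mitochondrial superoxide dismutase and a target of NF-kB, had 108169 counts in shHuR, 22030 in shADAR1 and 29919 in shControl, and was 3.80-fold higher (log2 ratio 1.92, interval 1.90 to 1.95). The adhesion molecule gene ICAM1 had 2329, 560 and 641, and was 3.22-fold higher. The kinase gene IRAK2 had 1518, 357 and 825, and was 3.29-fold higher. The inhibitor TNIP1 had 13006, 3871 and 5282, and was 2.60-fold higher. After scaling, SOD2 stood at 811 CPM in shADAR1 and 786 CPM in shControl, ICAM1 at 20.6 and 16.8, and TNIP1 at 142 and 139. The adhesion molecule VCAM1 went the other way, with 444 counts in shHuR, 1511 in shADAR1 and 194 in shControl, and was 4.40-fold lower (log2 ratio -2.14, interval -2.29 to -1.98). None of the 5 subunits was called.

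Immediate early factors were lower in 8 of 25 cases and higher in 1, with a median of -0.41, and in the precipitates 14 of 25 were lower and 1 higher. FOS, a subunit of AP-1, had 119 counts in shHuR, 2330 in shADAR1 and 471 in shControl, and was 25.3-fold lower (log2 ratio -4.66, interval -4.94 to -4.40). EGR1 had 1440 counts in shHuR, 9025 in shADAR1 and 5704 in shControl, and was 8.11-fold lower (log2 ratio -3.02, interval -3.10 to -2.94). For both genes shControl lay between the lines. KLF2 had 46, 151 and 241, and was 4.25-fold lower. ATF3 had 187, 522 and 284, and was 3.61-fold lower. The exception was the nuclear receptor NR4A2, with 1125, 359 and 265, which was 2.42-fold higher (log2 ratio 1.28, interval 1.10 to 1.45).

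Proteases and their inhibitors were higher in 6 of 23 cases and lower in 3, with a median of 0.27. MMP1, the interstitial collagenase, had 4512 counts in shHuR, 552 in shADAR1 and 566 in shControl, and was 6.32-fold higher (log2 ratio 2.66, interval 2.53 to 2.79). After scaling it stood at 20.3 CPM in shADAR1 and 14.9 CPM in shControl. The stromelysin gene MMP3 had 1186, 192 and 2, and was 4.78-fold higher. MMP10, another stromelysin gene, had 181, 12 and 0, and was 11.7-fold higher. Of 5 serpins, 3 were higher. SERPINB2 had 825, 22 and 10, and was 29-fold higher (log2 ratio 4.86, interval 4.25 to 5.54). SERPINE2 had 25346, 3601 and 887, and was 5.44-fold higher (log2 ratio 2.44, interval 2.39 to 2.49). Genes in the other direction were fewer. The protease gene ADAMTS1 had 6073, 13205 and 2027, and was 2.81-fold lower. The plasminogen activator gene PLAT had 5431, 10061 and 4076, and was 2.40-fold lower.

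Of 43 growth factors and their binding proteins, 11 were higher and 8 lower, with a median of 0.05. FGF2 had 27068 counts in shHuR, 3856 in shADAR1 and 2828 in shControl, and was 5.43-fold higher (log2 ratio 2.44, interval 2.39 to 2.49). INHBA, the activin A subunit, had 20069, 4076 and 1306, and was 3.81-fold higher (log2 ratio 1.93, interval 1.88 to 1.98). The BMP antagonist GREM1 had 54703, 11410 and 27706, and was 3.71-fold higher. The stanniocalcins are secreted hormones. STC1 had 22385, 3879 and 1830, and was 4.46-fold higher. STC2 had 33773, 10389 and 3932, and was 2.51-fold higher. The IGF binding protein IGFBP5 was the lower gene with the widest gap in CPM, at 62626 counts in shHuR, 180399 in shADAR1 and 59366 in shControl, and was 3.73-fold lower (log2 ratio -1.90, interval -1.91 to -1.88). BMP4 had 494, 2337 and 699, and was 6.12-fold lower. PDGFD had 105, 775 and 205, and was 9.55-fold lower. WNT2 had 7, 208 and 214, and was 38.4-fold lower (log2 ratio -5.26, interval -6.60 to -4.20).

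Matrix genes were lower in 12 of 37 cases and higher in 3, with a median of -0.37. COL1A1, the main chain of type I collagen, had 49849 counts in shHuR, 108169 in shADAR1 and 132786 in shControl, and was 2.81-fold lower (log2 ratio -1.49, interval -1.50 to -1.47). COL6A3 had 10837, 27562 and 39908, and was 3.29-fold lower. The fibulin gene FBLN1 had 364, 1430 and 3440, and was 5.08-fold lower. After scaling, COL1A1 stood at 3981 CPM in shADAR1 and 3489 CPM in shControl, and all 3 genes were lowest in shHuR. COL15A1 had 6, 166 and 526, and was 35.8-fold lower. COL14A1 had 73, 809 and 187, and was 14.3-fold lower. The 3 higher genes were COL11A1, POSTN and PLOD2. COL11A1, a chain of fibrillar type XI collagen, had 2843 counts in shHuR, 67 in shADAR1 and 124 in shControl, and was 32.8-fold higher (log2 ratio 5.04, interval 4.69 to 5.41). POSTN, periostin, had 1602, 133 and 472, and was 9.31-fold higher (log2 ratio 3.22, interval 2.96 to 3.49). PLOD2, a collagen lysyl hydroxylase, had 22554, 4663 and 1767, and was 3.74-fold higher.

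Of 14 contractile genes, 2 were higher and 3 lower, few genes beside 5.24% and 9.67% over all genes. MYLK, myosin light chain kinase, had 19683 counts in shHuR, 61671 in shADAR1 and 54072 in shControl, and was 4.05-fold lower (log2 ratio -2.02, interval -2.04 to -2.0). SYNPO2 had 9620, 1391 and 416, and was 5.35-fold higher (log2 ratio 2.42, interval 2.34 to 2.5). Of 7 keratin and plakin genes tested, 2 were higher and 1 lower. KRT7 had 341, 30 and 13, and was 8.79-fold higher, although no epithelial marker reached the count minimum.

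Most metabolic and housekeeping lists lay near 0, and their counts stand beside 5.24% higher and 9.67% lower over all genes. None of the 78 cytosolic ribosomal protein genes was called, with a median of -0.17. Of 33 genes of cholesterol and fatty acid synthesis, 3 were lower, and INSIG1, a sterol sensor, had 59, 200 and 2833. Of 24 p53 targets, 1 was lower, TP53INP1, with 1065, 2253 and 2223. Of 16 endoplasmic reticulum chaperones, 1 was higher, DNAJB9, with 1017, 348 and 250. Of 15 NRF2 targets, which answer oxidative stress, 2 were lower and none higher, with a median of -0.64. Of 27 genes of hypoxia and glycolysis, 7 were lower and none higher, with a median of -0.22.

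In the amino acid response 6 of 29 genes were lower and 1 higher. The shares over all genes, for this list and those that follow, were 9.67% lower and 5.24% higher. PHGDH, the first enzyme of serine synthesis, had 221 counts in shHuR, 1502 in shADAR1 and 4079 in shControl, and was 8.79-fold lower (log2 ratio -3.14, interval -3.35 to -2.93). PSAT1, the next enzyme, had 1004, 2055 and 2933, and was 2.65-fold lower. Of 7 prostaglandin genes, 3 were lower and 1 higher. The receptor gene PTGER2 had 206, 1588 and 3461, and was 9.97-fold lower (log2 ratio -3.32, interval -3.53 to -3.11), whereas the enzyme gene PTGS2 had 831, 306 and 19, and was 2.10-fold higher. Of 26 genes of autophagy and the lysosome, 3 were higher and 1 lower, and the protease CTSS had 295, 47 and 22, and was 4.85-fold higher (log2 ratio 2.28, interval 1.83 to 2.75).

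Genes reported in other work as HuR targets were called in both directions, with 3 of 32 higher and 5 lower, beside 5.24% and 9.67% over all genes, and with a median of -0.07, which was 0.0014 with scaling by library totals. These counts rest on few genes and lie near those shares. In the precipitates none of 32 was higher and 14 were lower, beside 12.5% and 17.2% over all genes tested in both, with a median of -0.68. Recovery with HuR and RNA level both enter this ratio and were not told apart. The genes higher in the inputs were PTGS2, IL6 (whose call ended at a log2 ratio of 0.90 when GC and length trends were removed) and CXCL8, and the lower ones CCNA2, CCNB1, BCL2, PTMA and FOS. PTMA, prothymosin alpha, had 2774, 6120 and 20187, and was 2.85-fold lower (log2 ratio -1.51, interval -1.58 to -1.45). Of 25 binders of AU-rich and related mRNAs, 3 were lower, counting ELAVL1, and 1 was higher. These are few genes too, and lie near the 9.67% and 5.24% over all genes. ZFP36 and ZFP36L2 bring such mRNAs to decay. ZFP36 had 506, 921 and 683, and was 2.35-fold lower. ZFP36L2 had 1062, 2229 and 5056, and was 2.72-fold lower.

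Recovery with HuR in shControl, the ratio of its precipitate to its input, took no part in the choice of genes. Over 12507 genes with a value, the median log2 ratio of shHuR over shADAR1 was 0.04 in the class of lowest recovery (3205 genes) and -0.05 in the class of highest (1696 genes). The share called higher went from 2.87% to 4.78%, and the share called lower from 9.77% to 10.6%, with 7.82% in the class before the last. These stand beside 3.85% higher and 9.20% lower over the 12507 genes, which also had to pass the count minimum in a shControl library. GC content went from 57.5% to 43.0% and exon length from 3676 to 6007 bases over the same classes, and their part in these shares was not tested.

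**Figure D4:**
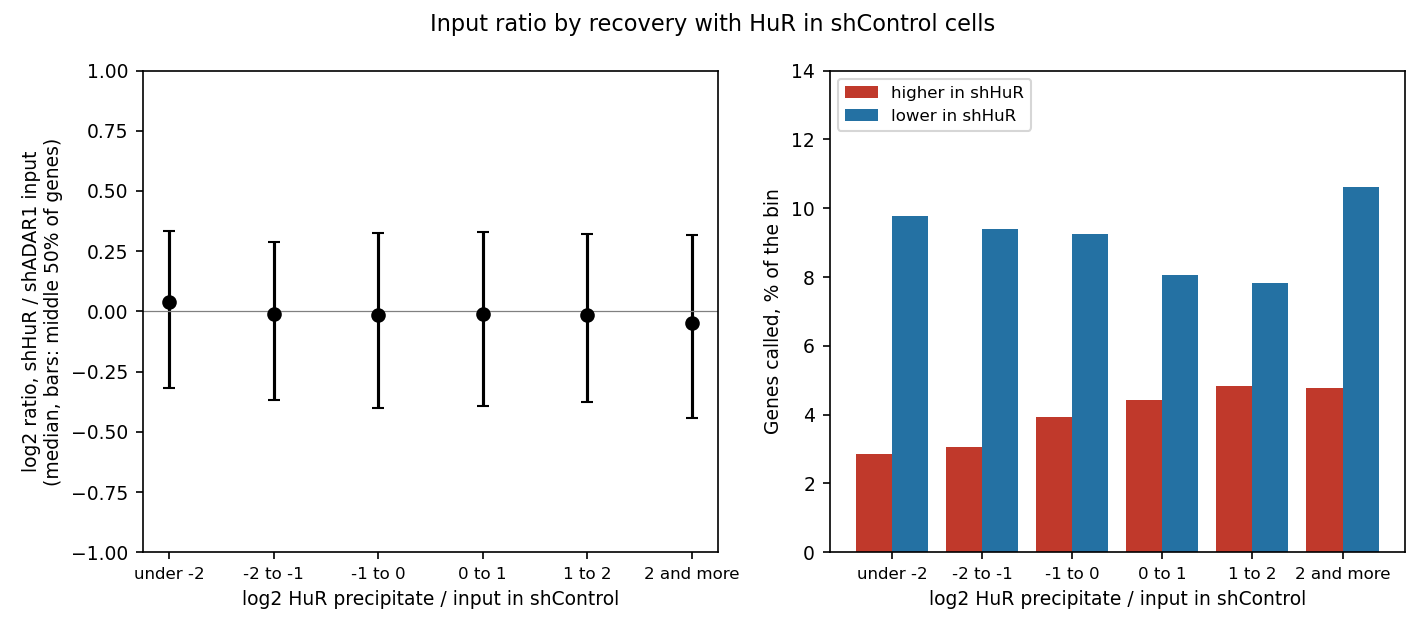
Genes in classes of log2 recovery in the shControl precipitate over its input, with the median log2 ratio of shHuR over shADAR1 input and the percent called higher and lower in each class. Class medians lie between -0.05 and 0.04.

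Among genes with a symbol and no mark of uncertainty, those farthest apart were mostly of low level in one line. Over all genes tested the largest log2 ratio, with the prior count, was 9.47. RNVU1-7, a noncoding RNA gene left out by its mark, had 1601 counts in shHuR, 0 in shADAR1 and 239 in shControl. The ID ENSG00000207418, which has no symbol, had the same counts in these libraries, so their assignment is uncertain. BCL11A, a transcription factor, had 125 counts in shHuR, 1 in shADAR1 and 37 in shControl, with a ratio of 96.6 (log2 ratio 6.59, interval 4.09 to 11.91). CYP1B1, a cytochrome P450, had 1933, 42 and 1781, and was 35.6-fold higher (log2 ratio 5.15, interval 4.71 to 5.63). EHF, an ETS factor of epithelia, had 1191, 31 and 2, and was 29.7-fold higher (log2 ratio 4.89, interval 4.38 to 5.46). HEPH, a ferroxidase, had 83, 0 and 111, and was at least 21.4-fold higher. At the other end, the chemokine receptor ACKR3 had 1 count in shHuR, 346 in shADAR1 and 10 in shControl, with a log2 ratio of -8.81 (interval -14.11 to -6.32). ITGA8, an integrin, had 34, 1627 and 163, and was 61.9-fold lower (log2 ratio -5.95, interval -6.49 to -5.46). RPS6KA5, a kinase, had 0, 93 and 43, and was at least 40.1-fold lower. RPL22P1 and RAB43P1, also among the extremes, are pseudogenes whose counts are uncertain.

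By difference in CPM, AKR1B1, aldose reductase, was among the higher genes, with 60804 counts in shHuR, 12982 in shADAR1 and 11309 in shControl, and was 3.62-fold higher (log2 ratio 1.86, interval 1.83 to 1.88). An ID without a symbol, ENSG00000266037, had a wider gap, at 2841 CPM in shHuR, 391 CPM in shADAR1 and 914 CPM in shControl. FKBP1A had 61055, 22340 and 21956, and was 2.11-fold higher. Among the lower genes, the cell cycle kinase gene CDK6 had 8221 counts in shHuR, 27913 in shADAR1 and 8483 in shControl, and was 4.39-fold lower (log2 ratio -2.13, interval -2.17 to -2.10). The actin crosslinker gene FLNA had 73755, 140497 and 134381, and was 2.46-fold lower. The scaffold gene AHNAK had 29437, 72504 and 25815, and was 3.19-fold lower.

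The shControl input, which is no part of the ratio, lay below both lines in 318 of the 682 higher genes (46.6%), between them in 289 (42.4%) and above both in 75 (11%). Of the 1259 lower genes it lay above both in 637 (50.6%), between them in 440 (34.9%) and below both in 182 (14.5%). Among higher genes, shControl was within 1.5-fold of shADAR1 in 230 and of shHuR in 137. Among lower genes the numbers were 400 and 202. The position of shControl was counted for called genes only. Whether these shares differ from those of genes not called was therefore not tested.

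The precipitates of the same lines are other libraries, and 11689 genes passed the minimum in both kinds. Recovery by the antibody also enters their ratio, and 1 of the lines carries the hairpin against HuR. These libraries are therefore not a separate measure of RNA level. In the precipitates 12.5% of these were higher and 17.2% lower in shHuR. Of 471 genes higher in the inputs, 266 (56.5%) were higher and 3 lower in the precipitates. Of 1011 lower in the inputs, 756 (74.8%) were lower and 7 higher. These are 18.2% of the genes higher and 37.6% of those lower in the precipitates. Median log2 ratios in the precipitates were 1.13 and -1.66 for the called groups and 0.03 for genes not called.

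**Figure D5:**
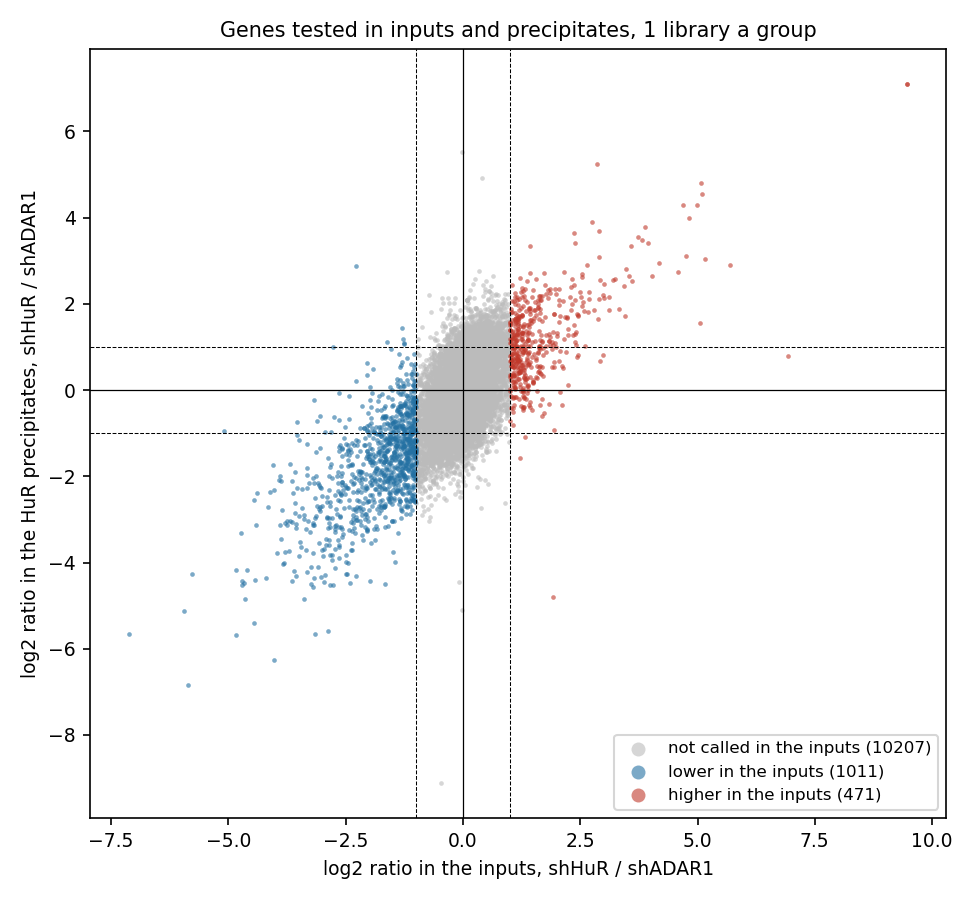
Log2 ratio of shHuR over shADAR1 in the inputs (x axis) and in the HuR precipitates (y axis) for 11689 genes, with dashed lines at 2-fold. Most genes called lower in the inputs (blue, 1011) lie below 0 on the y axis, and most called higher (red, 471) lie above it.

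In the separate RNA-seq pair, 12122 genes passed in both experiments, and with ADAR1 knockdown 6.1% were higher and 7.36% lower. Of 507 genes higher in shHuR than in shADAR1, 109 (21.5%) were higher and 71 (14%) lower with the knockdown. Of 1069 lower genes, 150 (14%) were higher and 128 (12%) lower. Both groups were thus called more often than the background in both directions.

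The called groups differed in gene type. Protein-coding genes made up 77.1% of the higher genes, 90.0% of the lower and 90.7% of all tested, and lincRNAs 5.72%, 0.874% and 1.82%. Median exon length was 4276 bases in the higher genes, 5148 in the lower and 5130 in all, and median GC content 46.3%, 49.3% and 47.7%.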

How the data were processed

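RNA of 3 IMR90 lines (shControl, shADAR1 and shHuR) was read in input and HuR precipitate libraries, beside an RNA-seq pair. The authors deposited expected counts for each gene, made with RSEM 1.2.3 on hg19 (GRCh37 is named as well for the precipitation experiment) according to the submitters' processing notes. The FPKM values deposited for the RNA-seq pair were not used in any result. The aligner, annotation release and strand setting are not given in the sources used here, so overlapping and antisense genes cannot be told apart. The deposited values were whole numbers and entered as they were.

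The shHuR input (34863880 counts) was compared with the shADAR1 input (28390935). Counts were scaled by TMM in edgeR 4.0.16. Ratios for calls and list medians had a prior count of 2, and named genes have the ratio without it, with an exact conditional binomial (Clopper-Pearson) interval at 95%. A count of 0 was set to a floor of 3 and the fold given as "at least". Precipitates and the RNA-seq pair were compared by the same rule. Symbols, types and lengths came from a gene table and GENCODE 29, and promoters from RefSeq.

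The 30 lists and the rule for named genes, like the choice of this comparison, were made with earlier results of these data known. The rule took ADAR, ELAVL1 and 4 senescence genes, up to 4 called genes each way in each list, the 12 largest ratios each way among genes with a symbol and no mark of uncertainty, and the 8 largest differences in CPM each way. In a few places other list members are given as well. The scripts were tested on simulated data. Alternatives were other scalings (library totals with and without dominant IDs, DESeq2 1.42.0, upper quartile), count minimums, prior counts, fold limits, protein-coding genes alone, and removal of GC and length trends (mgcv 1.9.3).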

Additional observations from a re-analysis of the deposited data

Results flagged for a closer look

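Some lists had medians of opposite sign in the inputs and in the HuR precipitates under the same comparison of shHuR with shADAR1. The difference was not tested, since each group held 1 library. Genes of antigen presentation had a median log2 ratio of -0.48 in the inputs and 0.16 in the precipitates. Replication-dependent histone genes had -1.94 in the inputs and 0.16 in the precipitates, where 2 of 18 were higher and 3 lower. Cytosolic ribosomal protein genes had -0.17 in the inputs, with none of 78 called, and 0.81 in the precipitates, with 18 of 73 higher.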

How the results depend on the processing

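The numbers of genes higher and lower (682 and 1259) depended on the count minimum and the fold limit. With a minimum of 10, 1471 were higher. With a minimum of 200, 371 were higher and 788 lower, and with no filter 2737 and 3166. At 1.5-fold they were 1710 and 2280, and at 4-fold 182 and 435. The share of lower genes also lower in the precipitates (74.8%) was 71.9% with library totals, 70.2% with totals without dominant IDs, 66.4% with a minimum of 10, 79.8% with 200 and 47.8% with no filter. The share of higher genes also higher there (56.5%) was 61.6% with totals without dominant IDs, 50.5% with a minimum of 10 and 38.3% with no filter. shControl lay above both lines in 53.7% of the lower genes with library totals, 54.6% with totals without dominant IDs, 45.4% with a minimum of 10 and 35.2% with no filter. It lay below both in 36.4%, 52.8% and 22.3% of the higher genes with minimums of 10 and 200 and no filter. The share of lower genes that were higher with ADAR1 knockdown was 16.6% with a minimum of 10, 18.7% with no filter and 11.9% in protein-coding genes, and that of higher genes was 17.7% with a minimum of 200. The cause was not tested. Of 147 named genes none changed sign under these settings. Of 143 past 2-fold, 133 were so with library totals, 141 with totals without dominant IDs and 140 with a prior count of 10, and 135 of 142 were so without GC and length trends. List medians close to 0 changed sign for 3 of 27 lists with library totals. No paired analysis was possible because each group held 1 library and the labels carry no replicate numbers.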

Other observations

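Some genes stood at least 2-fold on opposite sides of shControl in the 2 lines. They were picked after their values were seen, and both ratios share the shControl library. In 40 genes shHuR was below and shADAR1 above shControl. KCTD12 had 796 counts in shHuR, 4831 in shADAR1 and 2591 in shControl. In 23 genes the order was the reverse. ATP8B1, a phospholipid flippase, had 6485, 865 and 3449 counts in that order.

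A few genes were called in opposite directions in the inputs and in the precipitates. FOXD1, a forkhead factor, had 78 counts in shHuR and 148 in shADAR1 in the inputs, and 59 and 34 in the precipitates. SULT1A1, a sulfotransferase with close copies, had 51 and 96 in the inputs and 66 and 41 in the precipitates. The counts are low, and the differences were not tested.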
